A study of Mus musculus with 12 samples.

Results

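DNA replication genes were followed in mouse LSK cells, the lineage-negative, Kit- and Ly6a-positive fraction of blood-forming tissue that holds stem cells and early progenitors. The list holds 45 genes, chosen by name for their known place in copying the genome, out of 31131 gene names on the array. Each gene was read from the probe that carries its name in the scanner files, and where several did, from the probe with the highest mean over the 12 arrays. Of the 45 genes, 44 passed the detection filter and were tested among 23795 genes. Ccne2, the second E-type cyclin, was not above background on any of the 12 arrays and was not tested.

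All cells came from male DBA2/J mice, and the labels give no age and no number of mice. Steady-state LSK cells were sorted from bone marrow after PBS (3 arrays). Mobilized LSK cells were sorted from peripheral blood after 5 days of G-CSF given as 9 injections (3 arrays), 1 hour of AMD3100 (3 arrays), or CWHM-823+tGro-b, for which no time is given (3 arrays). G-CSF is the cytokine granulocyte colony-stimulating factor, AMD3100 is an antagonist of the chemokine receptor CXCR4, CWHM-823 is an inhibitor of the integrin VLA4, and tGro-b is a truncated form of the CXCR2 ligand Gro-beta. All 4 groups went through red cell depletion, Kit enrichment and sorting, and their RNA was amplified before labelling with Cy5. Blood was not sampled from PBS mice, so tissue and treatment cannot be told apart in the comparisons with marrow. The labels do not say whether each array holds its own mice, so a p-value here measures the spread between these samples, which may be technical.

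A cell copies its genome in ordered steps. The origin recognition complex, Cdc6 and Cdt1 load the MCM helicase onto DNA in G1; in S phase the helicase is joined by the GINS complex, unwinds the double strand and is followed by the polymerases, which are held on DNA by the clamp Pcna and fed by the enzymes that make deoxynucleotides. Many of these genes are transcribed under E2F factors as a cell commits to S phase. Most steady-state stem cells are quiescent, whereas the progenitors that share their surface markers divide more often, so the levels of these genes in a sorted population depend on which cells it holds. In such bulk samples, fewer cells in cycle and less RNA of these genes per cell cannot be told apart.

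The array's 75th percentile signal, to which every level below is referred on the log2 scale, ran from 1146 to 2724 intensity units; it was 1146 to 1581 on the AMD3100 arrays and 2188 to 2724 on the G-CSF arrays. Between 70.2% and 83.1% of probes were above background on an array. All 10 LSK markers were above background on every array outside the AMD3100 group and 9 of 10 on each AMD3100 array, where Slamf1 averaged -3.77 against -1.62 in G-CSF blood. Marker lists of other cells differed between the groups as well. Of 10 neutrophil genes listed, 9 were on the array, and their summed level, in multiples of the 75th percentile signal, reached 32.1 on the third PBS marrow array; the remaining marrow arrays had 2.65 and 2.86, and blood had 1.64 to 3.72. Between G-CSF and AMD3100 blood the summed levels were 7.25 to 7.62 against 1.92 to 3.00 for 8 erythroid genes, 4.02 to 4.29 against 5.63 to 5.98 for 5 B cell genes, 2.85 to 6.20 against 5.95 to 9.32 for 5 T cell genes, and 96.5 to 108 against 134 to 191 for 6 monocyte and dendritic cell genes. The part of these differences in the results below was not tested. The third PBS marrow array also had the highest median level of the replication genes of all 12 arrays, 0.90, so the counts and medians against marrow are also given without it.

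The replication genes were lowest in AMD3100 blood. The mean of the 3 arrays was lowest in AMD3100 blood for 33 of 44 members, 75%, against 29.9% of all genes tested, and highest in G-CSF blood for 30 members, 68.2%, against 27.8% of all genes. After quantile normalization these counts were 36 members, 81.8% against 35.5% of all genes, and 24 members, 54.5% against 31.0%. The median level over the members was 0.30, 0.45 and 0.90 on the PBS marrow arrays, 0.82, 0.40 and 0.53 in G-CSF blood, 0.62, 0.07 and 0.19 in CWHM-823+tGro-b blood and -0.06, -0.35 and 0.14 in AMD3100 blood. All 3 AMD3100 values lay below all 3 G-CSF and all 3 marrow values, and overlapped the CWHM-823+tGro-b values. The median over all genes tested went the other way, from -0.83 to -1.06 in G-CSF blood and from -0.66 to -0.79 in AMD3100 blood.

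**Figure D1:**
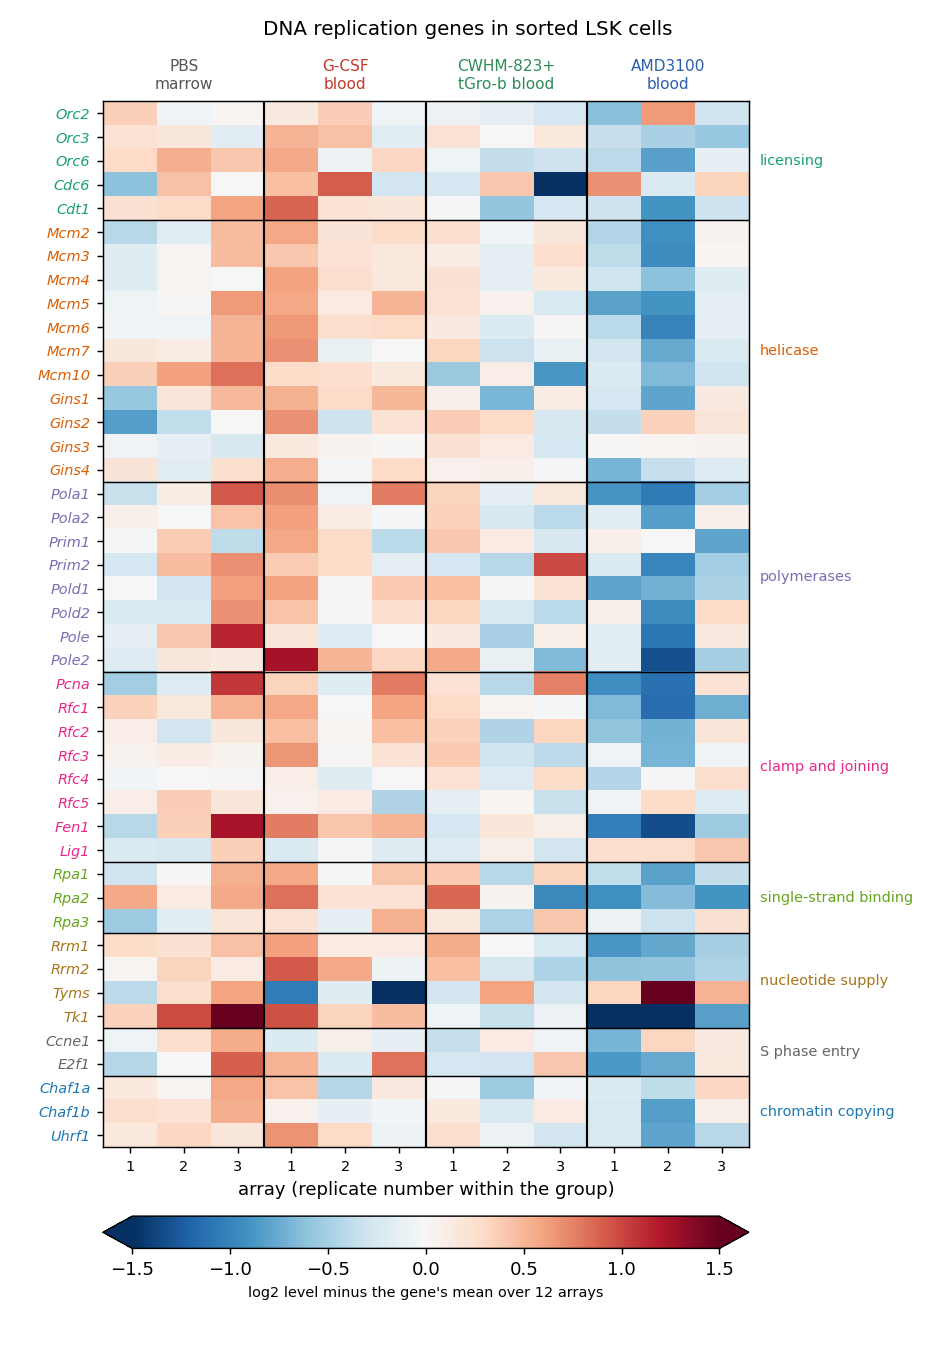
Level of the 44 tested DNA replication genes on the 12 arrays, as the log2 level minus the gene's mean over the arrays (red above, blue below the mean), with genes ordered by step of replication and arrays by group. The AMD3100 columns are mostly blue and the G-CSF columns mostly red, while Tyms and Lig1 run the other way; the third marrow array is red for many genes.

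G-CSF and AMD3100 blood differed the most. In limma with Benjamini-Hochberg adjustment over all genes, 16 of 44 members were higher after G-CSF and 1 was lower, against 12.6% and 18.4% of all genes tested. With the replicate number as a block, which is also the slide, 26 members were higher and 1 was lower, against 23.0% and 39.6% of all genes. The median log2 difference over the members was 0.70, where that over all genes was -0.37; 41 of 44 members were above 0 and 42 lay above the median of all genes. Within the 3 slides the members' median difference was 0.90, 0.87 and 0.35, and 30 members, 68.2%, were higher in G-CSF blood on all 3 slides, against 30.7% of all genes. The number of calls depended on single arrays: without G-CSF replicate 1 or AMD3100 replicate 2 only Rfc1 and Tk1 passed, without AMD3100 replicate 1 there were 5 calls and without G-CSF replicate 3 there were 7. These counts stand here without the share of all genes in the same fits. The drop cannot be read as particular to the members. With the block, 16 to 26 members were higher when any 1 of the 12 arrays was left out, where 16.5% to 23.2% of all genes were higher.

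**Figure D2:**
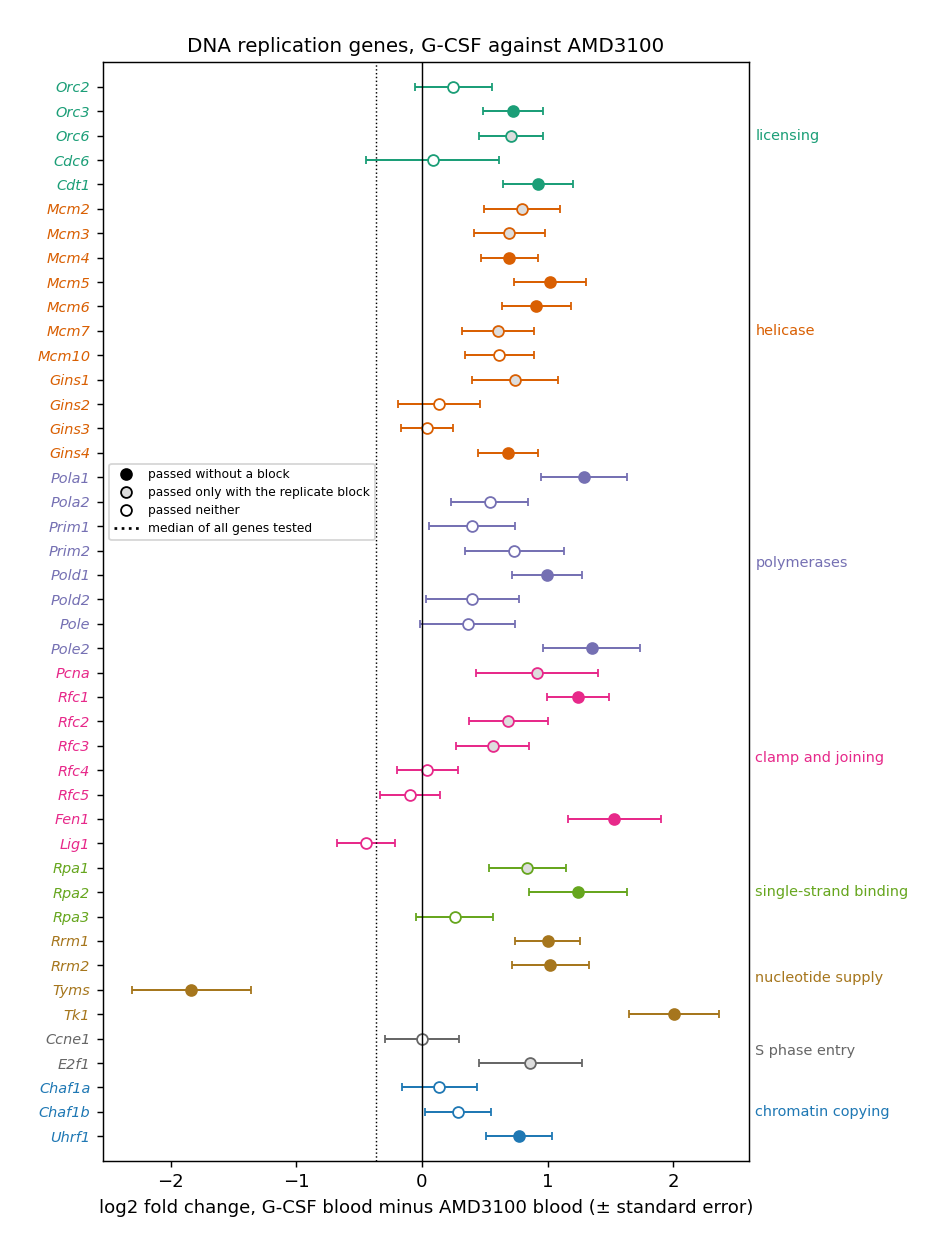
Log2 fold change with its standard error of each tested member, G-CSF blood minus AMD3100 blood, by step of replication; filled points passed without a block, grey points only with the replicate block, and open points in neither fit. Most members lie right of 0 while the dotted line, the median of all genes tested, lies at -0.37; Tyms is the single member that passed on the left.

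The promoters of the members were searched for words that the choice of the list did not use. RefSeq promoter windows of GRCm38.p6, 250 bases before to 50 bases after the start, were at hand for 37 of the 45 members (44 windows). An E2F word (TTTCCCGC, TTTCGCGC, TTTGCCGC or TTTGGCGC, either strand, overlapping matches counted) stood in 14 of 44 member windows, 31.8%, and in 31.9% of the windows of the other replication genes listed further on, against 3.85% of windows of mitosis genes and 2.26% of all 32851 windows. CCAAT, on either strand, stood in 56.8% of member windows, 80.8% of mitosis windows and 37.4% of all. The cell cycle homology words TTTGAA and TTTAAA stood in 22.7%, 80.8% and 27.6%. The GC box GGGCGG was the most frequent of the words searched in member windows, at 70.5%, beside 80.9% for the other replication genes, 76.9% for mitosis genes and 35.7% of all. The upstream 250 bases of 3 members that were higher in G-CSF than in AMD3100 blood are shown because they hold these words, with E2F words and CCAAT or its reverse complement in capitals. They lie at chr8:75109259-75109508 on the plus strand (Mcm5), chr1:128359706-128359955 on the minus strand (Mcm6) and chrX:93632156-93632405 on the minus strand (Pola1), and each is written 5′ to 3′ toward the start.
Mcm5: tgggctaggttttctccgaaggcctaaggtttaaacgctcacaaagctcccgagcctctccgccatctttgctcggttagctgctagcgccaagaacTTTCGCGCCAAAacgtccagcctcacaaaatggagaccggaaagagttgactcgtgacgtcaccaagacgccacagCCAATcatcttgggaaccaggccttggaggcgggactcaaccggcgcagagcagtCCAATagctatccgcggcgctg
Mcm6: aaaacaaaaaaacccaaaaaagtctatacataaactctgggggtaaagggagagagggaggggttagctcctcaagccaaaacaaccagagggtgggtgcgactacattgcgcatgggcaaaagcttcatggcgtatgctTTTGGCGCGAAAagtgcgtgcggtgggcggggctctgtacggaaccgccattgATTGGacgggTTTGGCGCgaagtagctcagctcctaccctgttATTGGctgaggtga
Pola1: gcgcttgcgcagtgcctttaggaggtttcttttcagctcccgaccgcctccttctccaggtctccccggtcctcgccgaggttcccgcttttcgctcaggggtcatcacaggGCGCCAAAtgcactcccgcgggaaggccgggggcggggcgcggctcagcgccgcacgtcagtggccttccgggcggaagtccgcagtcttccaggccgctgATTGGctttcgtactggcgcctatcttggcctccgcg
In Mcm5 and in Mcm6 a pair of E2F words on opposite strands overlaps in one run of capitals. The 14 members with an E2F word had a median difference of 0.75 between G-CSF and AMD3100 blood, against 0.62 for the 23 members whose windows held none; this difference was not tested. Tk1 and Tyms, the members with the largest differences in either direction, had none of these E2F words in their windows, which says only that these letters are not there.

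Of 5 licensing genes, 2 were higher in G-CSF than in AMD3100 blood without the block and 3 with it, against 12.6% and 23.0% of all genes. No step was tested against these shares, here or below. Cdt1, which brings the MCM helicase to the origin, stood at 1.0, 1.06 and 1.35 in PBS marrow, 1.64, 0.97 and 0.94 in G-CSF blood, 0.75, 0.19 and 0.51 in CWHM-823+tGro-b blood and 0.45, -0.13 and 0.46 in AMD3100 blood. The 3 AMD3100 arrays lay below all marrow and G-CSF arrays. Cdt1 was 1.89-fold higher in G-CSF than in AMD3100 blood, a log2 difference of 0.92 ± 0.28 (SE; limma adjusted p = 0.0312). Orc3, a subunit of the origin recognition complex, averaged 0.11 ± 0.21 in PBS marrow, 0.31 ± 0.37 in G-CSF blood, 0.18 ± 0.11 in CWHM-823+tGro-b blood and -0.42 ± 0.11 in AMD3100 blood (SD, n = 3 arrays). Its difference between G-CSF and AMD3100 blood was 0.73 ± 0.24 (limma adjusted p = 0.0401). Orc6, the smallest subunit of that complex, averaged 0.92 ± 0.12 in PBS marrow, 0.77 ± 0.33 in G-CSF blood, 0.25 ± 0.16 in CWHM-823+tGro-b blood and 0.05 ± 0.35 in AMD3100 blood; the G-CSF minus AMD3100 difference was 0.71 ± 0.25 (limma adjusted p = 0.0513) and passed with the block (adjusted p = 0.0151). Standard errors here and below are those of the fit without the block, also beside a p from the blocked fit. The AMD3100 minus marrow difference was -0.86 ± 0.25 for Orc6 and -0.87 ± 0.28 for Cdt1, which passed only with the block (limma adjusted p = 0.0302 and 0.0305, against 0.111 and 0.132 without it). Orc2, another subunit, averaged -1.35 ± 0.22 in PBS marrow, -1.31 ± 0.21 in G-CSF blood, -1.62 ± 0.09 in CWHM-823+tGro-b blood and -1.55 ± 0.66 in AMD3100 blood. Cdc6, the loading factor, averaged -1.94 ± 0.53 in PBS marrow, -1.53 ± 0.60 in G-CSF blood, -2.45 ± 1.16 in CWHM-823+tGro-b blood and -1.62 ± 0.45 in AMD3100 blood. Neither passed in any comparison. Cdc6 has a second probe that disagreed with the brighter one used here: the G-CSF minus AMD3100 difference was 0.08 on the probe used and 2.02 on the other.

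All 11 helicase genes lay above 0 in G-CSF minus AMD3100, from 0.04 to 1.02 on the log2 scale with a median of 0.70. Of all genes, 40.3% lay above 0. Without the block 4 passed and with it 8, against 12.6% and 23.0% of all genes higher. Mcm2 to Mcm7 encode the 6 subunits of the ring that unwinds DNA. Mcm5 stood at 0.19, 0.28 and 0.90 in PBS marrow, 0.84, 0.38 and 0.77 in G-CSF blood, 0.48, 0.32 and 0.03 in CWHM-823+tGro-b blood and -0.55, -0.64 and 0.11 in AMD3100 blood. Mcm6 stood at 3.23, 3.22 and 3.77 in PBS marrow, 3.92, 3.50 and 3.54 in G-CSF blood, 3.39, 3.06 and 3.28 in CWHM-823+tGro-b blood and 2.86, 2.26 and 3.11 in AMD3100 blood. For both genes the lowest 2 AMD3100 arrays lay below every other array, while the third AMD3100 array overlapped the blood of CWHM-823+tGro-b. Mcm5 was 2.03-fold and Mcm6 1.88-fold higher after G-CSF than after AMD3100 (log2 1.02 ± 0.29 and 0.91 ± 0.28, limma adjusted p = 0.0249 and 0.0316). Mcm4 averaged 2.88 ± 0.12 in PBS marrow, 3.26 ± 0.24 in G-CSF blood, 3.00 ± 0.19 in CWHM-823+tGro-b blood and 2.56 ± 0.22 in AMD3100 blood, and its difference was 0.70 ± 0.23 (limma adjusted p = 0.0397). The other ring subunits passed only with the block. Mcm2, at 1.99 ± 0.46 in PBS marrow, 2.38 ± 0.20 in G-CSF blood, 2.15 ± 0.14 in CWHM-823+tGro-b blood and 1.59 ± 0.49 in AMD3100 blood, differed by 0.79 ± 0.30 (limma adjusted p = 0.0619 without and 0.0187 with the block). Mcm3, at 2.37 ± 0.33 in PBS marrow, 2.52 ± 0.13 in G-CSF blood, 2.33 ± 0.20 in CWHM-823+tGro-b blood and 1.82 ± 0.49 in AMD3100 blood, differed by 0.70 ± 0.28 (adjusted p = 0.0741 and 0.0219), and Mcm7, at 2.54 ± 0.22 in PBS marrow, 2.47 ± 0.43 in G-CSF blood, 2.24 ± 0.33 in CWHM-823+tGro-b blood and 1.86 ± 0.29 in AMD3100 blood, by 0.61 ± 0.29 (adjusted p = 0.11 and 0.0281). All 6 ring subunits were higher in G-CSF than in AMD3100 blood on each of the 3 slides.

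Mcm10, which helps the loaded helicase start, stood at -1.47, -1.22 and -1.01 in PBS marrow, -1.56, -1.58 and -1.69 in G-CSF blood, -2.39, -1.74 and -2.71 in CWHM-823+tGro-b blood and -2.04, -2.50 and -2.14 in AMD3100 blood. All 3 arrays of CWHM-823+tGro-b and all 3 of AMD3100 lay below all G-CSF and marrow arrays. The difference from marrow was -0.99 ± 0.27 after AMD3100 (limma adjusted p = 0.0948, and 0.0385 with the block), -1.05 ± 0.27 after CWHM-823+tGro-b (adjusted p = 0.218 and 0.121) and -0.38 ± 0.27 after G-CSF (adjusted p = 0.415). The 4 GINS subunits bridge helicase and polymerase. Gins4 averaged -0.47 ± 0.22 in PBS marrow, -0.29 ± 0.29 in G-CSF blood, -0.52 ± 0.06 in CWHM-823+tGro-b blood and -0.97 ± 0.26 in AMD3100 blood and was 0.68 ± 0.24 higher after G-CSF than after AMD3100 (limma adjusted p = 0.0478). Gins1, at 0.64 ± 0.54 in PBS marrow, 1.04 ± 0.14 in G-CSF blood, 0.44 ± 0.45 in CWHM-823+tGro-b blood and 0.30 ± 0.47 in AMD3100 blood, differed by 0.74 ± 0.34 and passed only with the block (adjusted p = 0.0412). Gins3 was nearly level, at 2.16 ± 0.10 in PBS marrow, 2.38 ± 0.07 in G-CSF blood, 2.33 ± 0.26 in CWHM-823+tGro-b blood and 2.34 ± 0.02 in AMD3100 blood. Gins2 was lowest in marrow, at -1.14 ± 0.41 in PBS marrow, -0.55 ± 0.49 in G-CSF blood, -0.60 ± 0.34 in CWHM-823+tGro-b blood and -0.68 ± 0.37 in AMD3100 blood, and its difference from marrow was 0.59 ± 0.33 after G-CSF (limma adjusted p = 0.32), 0.54 ± 0.33 after CWHM-823+tGro-b (adjusted p = 1.0) and 0.46 ± 0.33 after AMD3100 (adjusted p = 0.475).

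Of the polymerase genes, 3 of 8 were higher in G-CSF than in AMD3100 blood in either fit. Of all genes, 12.6% were higher without the block and 23.0% with it. All 8 differences were above 0, from 0.36 to 1.35, as were 40.3% of those of all genes. Pole2, the second subunit of the leading-strand polymerase epsilon, stood at -1.57, -1.21 and -1.24 in PBS marrow, -0.12, -0.87 and -1.07 in G-CSF blood, -0.81, -1.48 and -2.03 in CWHM-823+tGro-b blood and -1.54, -2.70 and -1.87 in AMD3100 blood. The G-CSF arrays were the 3 highest but for 1 array of CWHM-823+tGro-b, and all lay above the AMD3100 arrays. Its log2 difference was 1.35 ± 0.39, 2.55-fold (limma adjusted p = 0.0264). Pola1, the catalytic subunit of the priming polymerase alpha, stood at -1.23, -0.78 and 0.03 in PBS marrow, -0.20, -0.95 and -0.13 in G-CSF blood, -0.57, -1.05 and -0.74 in CWHM-823+tGro-b blood and -1.78, -1.96 and -1.41 in AMD3100 blood. The AMD3100 arrays were the lowest 3 of the 12. Pola1 was 1.29 ± 0.34 higher after G-CSF than after AMD3100 (limma adjusted p = 0.0211); with the block it was also lower after AMD3100 than in marrow (-1.05 ± 0.34, adjusted p = 0.0347, and 0.14 without it) and than in CWHM-823+tGro-b blood (difference 0.93 ± 0.34, adjusted p = 0.0442, and 0.196 without it). Pold1, the catalytic subunit of the lagging-strand polymerase delta, stood at 0.57, 0.28 and 1.19 in PBS marrow, 1.17, 0.58 and 0.96 in G-CSF blood, 1.02, 0.55 and 0.78 in CWHM-823+tGro-b blood and -0.23, -0.15 and 0.09 in AMD3100 blood. Again the AMD3100 arrays were the lowest 3. The differences were 1.0 ± 0.28 between G-CSF and AMD3100 blood (limma adjusted p = 0.0242), -0.78 ± 0.28 between AMD3100 blood and marrow (adjusted p = 0.0415 with the block, 0.171 without) and 0.88 ± 0.28 between CWHM-823+tGro-b and AMD3100 blood (adjusted p = 0.0322 with the block, 0.16 without). The remaining polymerase genes passed in no comparison. Pola2, the second subunit of polymerase alpha, averaged 1.47 ± 0.23 in PBS marrow, 1.54 ± 0.34 in G-CSF blood, 1.2 ± 0.40 in CWHM-823+tGro-b blood and 1.0 ± 0.47 in AMD3100 blood. Prim1, the catalytic primase subunit, averaged 0.07 ± 0.38 in PBS marrow, 0.23 ± 0.50 in G-CSF blood, 0.17 ± 0.32 in CWHM-823+tGro-b blood and -0.16 ± 0.48 in AMD3100 blood. Prim2, its partner, averaged -0.54 ± 0.50 in PBS marrow, -0.67 ± 0.28 in G-CSF blood, -0.72 ± 0.77 in CWHM-823+tGro-b blood and -1.40 ± 0.39 in AMD3100 blood. Pold2, a delta subunit, averaged 1.78 ± 0.51 in PBS marrow, 1.90 ± 0.23 in G-CSF blood, 1.59 ± 0.38 in CWHM-823+tGro-b blood and 1.5 ± 0.66 in AMD3100 blood. Pole, the catalytic subunit of epsilon, averaged 1.0 ± 0.64 in PBS marrow, 0.53 ± 0.19 in G-CSF blood, 0.44 ± 0.35 in CWHM-823+tGro-b blood and 0.16 ± 0.63 in AMD3100 blood. Pole has 3 probes, of which the brightest, used here, gave a G-CSF minus AMD3100 difference of 0.36 and the others -1.13 and 0.42.

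**Figure D3:**
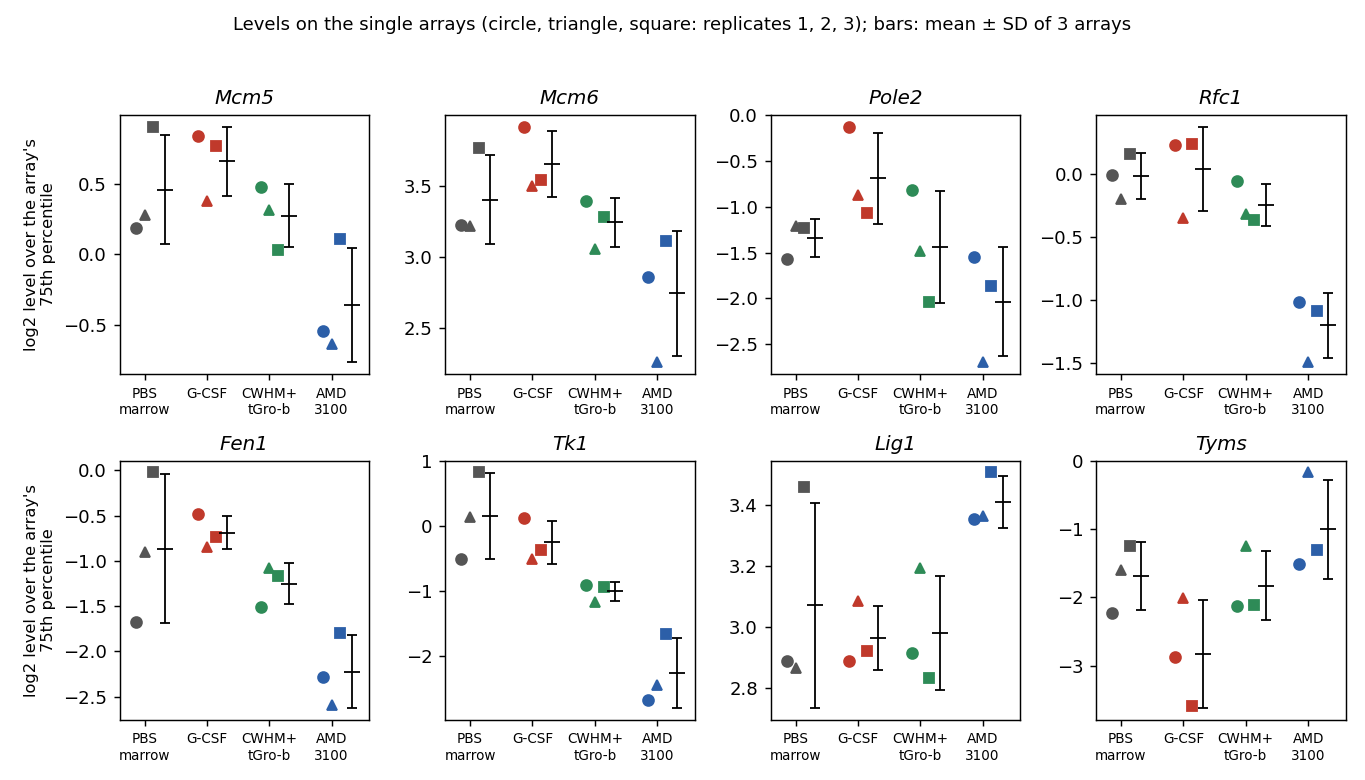
Log2 level of 8 members on each array, relative to the array's 75th percentile signal, with the mean and SD of the 3 arrays of each group beside the points. Mcm5, Mcm6, Pole2, Rfc1, Fen1 and Tk1 are lowest in AMD3100 blood, while Lig1 and Tyms have their highest group mean there.

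Of the sliding clamp and the 7 genes that act with it, 2 were higher in G-CSF than in AMD3100 blood without the block and 5 with it. Of all genes, 12.6% and 23.0% were higher. Rfc1, the large subunit of the loader that opens the clamp, stood at -0.01, -0.20 and 0.16 in PBS marrow, 0.22, -0.35 and 0.24 in G-CSF blood, -0.06, -0.32 and -0.37 in CWHM-823+tGro-b blood and -1.02, -1.5 and -1.09 in AMD3100 blood. The 3 AMD3100 arrays were the lowest of all 12, with no overlap. Rfc1 was 2.36-fold higher after G-CSF than after AMD3100, a log2 difference of 1.24 ± 0.25 (limma adjusted p = 0.00954), with 1.25, 1.15 and 1.33 within the slides, and passed when any 1 array was left out. It was also lower after AMD3100 than in marrow, with a log2 difference of -1.18 ± 0.25 (limma adjusted p = 0.0401); 11 of the 12 fits that leave out 1 array lost that call, all but the one without G-CSF replicate 2, at adjusted p up to 0.152. With the block it passed (adjusted p = 0.00659), as did the difference of 0.95 ± 0.25 between CWHM-823+tGro-b and AMD3100 blood (adjusted p = 0.0213, and 0.130 without it). Fen1, the nuclease that trims Okazaki fragments, stood at -1.67, -0.90 and -0.02 in PBS marrow, -0.49, -0.84 and -0.74 in G-CSF blood, -1.51, -1.08 and -1.17 in CWHM-823+tGro-b blood and -2.28, -2.59 and -1.79 in AMD3100 blood. It spread widely over the marrow arrays, and the AMD3100 arrays lay below all others. Fen1 was 2.89-fold higher after G-CSF than after AMD3100 (log2 1.53 ± 0.37, limma adjusted p = 0.0160), and lower after AMD3100 than in marrow only with the block (-1.36 ± 0.37, adjusted p = 0.030, and 0.0942 without it).

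Pcna, the clamp itself, stood at 0.99, 1.32 and 2.56 in PBS marrow, 1.83, 1.32 and 2.28 in G-CSF blood, 1.72, 1.09 and 2.27 in CWHM-823+tGro-b blood and 0.57, 0.39 and 1.72 in AMD3100 blood. Replicate 3 was the highest of its group in all 4 groups, and the groups overlapped. With the block, which takes that shared shift out, Pcna was 0.92 ± 0.49 higher after G-CSF than after AMD3100 (limma adjusted p = 0.00870, and 0.146 without the block) and 0.80 ± 0.49 higher after CWHM-823+tGro-b (adjusted p = 0.0456 and 0.350). Of the small loader subunits, Rfc2, at 1.35 ± 0.25 in PBS marrow, 1.67 ± 0.25 in G-CSF blood, 1.42 ± 0.45 in CWHM-823+tGro-b blood and 0.98 ± 0.48 in AMD3100 blood, differed by 0.69 ± 0.31 between G-CSF and AMD3100 blood (limma adjusted p = 0.0133 with the block, 0.0995 without), and Rfc3, at 0.39 ± 0.04 in PBS marrow, 0.62 ± 0.33 in G-CSF blood, 0.23 ± 0.43 in CWHM-823+tGro-b blood and 0.06 ± 0.37 in AMD3100 blood, by 0.56 ± 0.29 (adjusted p = 0.0436 and 0.135). Rfc4 and Rfc5 passed in no comparison. Rfc4 averaged -0.45 ± 0.03 in PBS marrow, -0.47 ± 0.14 in G-CSF blood, -0.35 ± 0.25 in CWHM-823+tGro-b blood and -0.52 ± 0.36 in AMD3100 blood; its second probe, at a similar level, gave 0.63 in G-CSF minus AMD3100 blood where the probe used gave 0.04. Rfc5 averaged 0.96 ± 0.14 in PBS marrow, 0.66 ± 0.31 in G-CSF blood, 0.60 ± 0.18 in CWHM-823+tGro-b blood and 0.76 ± 0.24 in AMD3100 blood. The G-CSF minus AMD3100 difference of Rfc5 was -0.10 ± 0.24 (limma adjusted p = 0.751). Lig1, the ligase that seals Okazaki fragments, stood at 2.89, 2.86 and 3.46 in PBS marrow, 2.89, 3.08 and 2.92 in G-CSF blood, 2.91, 3.19 and 2.83 in CWHM-823+tGro-b blood and 3.35, 3.36 and 3.51 in AMD3100 blood. Its 3 AMD3100 arrays were among the 4 highest, the other being the third marrow array. The difference was -0.45 ± 0.23 in G-CSF minus AMD3100 blood (limma adjusted p = 0.139), 0.34 ± 0.23 in AMD3100 blood minus marrow (adjusted p = 0.447) and -0.43 ± 0.23 in CWHM-823+tGro-b minus AMD3100 blood (adjusted p = 0.305), and none passed.

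The single-strand binding protein RPA covers unwound DNA as a trimer. Rpa2, its middle subunit, stood at -1.89, -2.33 and -1.88 in PBS marrow, -1.62, -2.24 and -2.23 in G-CSF blood, -1.59, -2.40 and -3.42 in CWHM-823+tGro-b blood and -3.38, -3.10 and -3.34 in AMD3100 blood. It was above background on 2 of the 3 AMD3100 arrays, where its levels were near those of the lowest CWHM-823+tGro-b array. Rpa2 was 1.24 ± 0.39 higher after G-CSF than after AMD3100 (limma adjusted p = 0.0354), and -1.24 ± 0.39 in AMD3100 blood minus marrow passed only with the block (adjusted p = 0.0452, and 0.129 without it). Rpa1, the large subunit, averaged 2.06 ± 0.42 in PBS marrow, 2.31 ± 0.31 in G-CSF blood, 2.08 ± 0.45 in CWHM-823+tGro-b blood and 1.47 ± 0.25 in AMD3100 blood and passed with the block in G-CSF minus AMD3100 (0.84 ± 0.31, limma adjusted p = 0.0113, and 0.0551 without it). Rpa3, the small subunit, averaged 1.15 ± 0.37 in PBS marrow, 1.52 ± 0.34 in G-CSF blood, 1.35 ± 0.45 in CWHM-823+tGro-b blood and 1.26 ± 0.28 in AMD3100 blood and passed in no comparison.

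Nucleotide supply held the members with the largest difference in each direction. Tk1, the thymidine kinase of the salvage route, stood at -0.50, 0.14 and 0.82 in PBS marrow, 0.12, -0.50 and -0.37 in G-CSF blood, -0.91, -1.17 and -0.93 in CWHM-823+tGro-b blood and -2.67, -2.45 and -1.66 in AMD3100 blood. The order of the group means was marrow, G-CSF, CWHM-823+tGro-b and AMD3100; marrow and G-CSF overlapped, and the AMD3100 arrays lay below all others. Tk1 was above background on 2 of the 3 AMD3100 arrays and on all others. It was 4.02-fold higher after G-CSF than after AMD3100, a log2 difference of 2.01 ± 0.36 (limma adjusted p = 0.00751), with 2.79, 1.95 and 1.28 within the slides, and 5.32-fold lower after AMD3100 than in marrow (-2.41 ± 0.36, limma adjusted p = 0.0107), with -2.17, -2.59 and -2.48 within the slides. The first call passed without any 1 of the 12 arrays; the second reached an adjusted p of 0.0502 without PBS marrow replicate 2. Tk1 was also higher in CWHM-823+tGro-b than in AMD3100 blood with the block (1.26 ± 0.36, limma adjusted p = 0.0358, and 0.143 without it), and differed by -1.16 ± 0.36 between CWHM-823+tGro-b blood and marrow (adjusted p = 0.415) and by 0.75 ± 0.36 between G-CSF and CWHM-823+tGro-b blood (adjusted p = 0.512).

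Tyms, thymidylate synthase of the route that makes thymidylate anew, ran against Tk1. It stood at -2.22, -1.59 and -1.25 in PBS marrow, -2.88, -2.01 and -3.60 in G-CSF blood, -2.12, -1.24 and -2.11 in CWHM-823+tGro-b blood and -1.51, -0.16 and -1.31 in AMD3100 blood. All 3 G-CSF arrays lay below all 3 AMD3100 arrays, and marrow lay between and overlapped both. Tyms was 3.56-fold lower after G-CSF than after AMD3100, a log2 difference of -1.83 ± 0.47 (limma adjusted p = 0.0188), with -1.37, -1.85 and -2.29 within the slides. The call was lost without G-CSF replicate 1, G-CSF replicate 3 or AMD3100 replicate 2, at adjusted p up to 0.0714. Against marrow the G-CSF difference of -1.14 ± 0.47 passed only with the block (limma adjusted p = 0.0433, and 0.219 without it), with -0.66, -0.42 and -2.35 within the slides; the AMD3100 difference was 0.69 ± 0.47 (adjusted p = 0.446). Against CWHM-823+tGro-b, Tyms differed by -1.0 ± 0.47 in G-CSF blood (limma adjusted p = 0.5), and by -0.83 ± 0.47 in CWHM-823+tGro-b minus AMD3100 blood (adjusted p = 0.325). Rrm1 and Rrm2, the subunits of ribonucleotide reductase, went with Tk1. Rrm1 stood at 0.35, 0.30 and 0.51 in PBS marrow, 0.69, 0.20 and 0.20 in G-CSF blood, 0.63, 0.08 and -0.15 in CWHM-823+tGro-b blood and -0.80, -0.69 and -0.42 in AMD3100 blood. Rrm2 stood at 0.23, 0.52 and 0.31 in PBS marrow, 1.11, 0.75 and 0.11 in G-CSF blood, 0.64, -0.06 and -0.28 in CWHM-823+tGro-b blood and -0.41, -0.40 and -0.28 in AMD3100 blood. The AMD3100 arrays were the lowest 3 for both genes, but for Rrm2 the highest of them lay next to the lowest CWHM-823+tGro-b array. The G-CSF minus AMD3100 differences were 1.0 ± 0.26 and 1.02 ± 0.30 (limma adjusted p = 0.0192 and 0.0297). Rrm1 passed also with the block in AMD3100 blood minus marrow (-1.03 ± 0.26, limma adjusted p = 0.0234, and 0.0764 without it) and in CWHM-823+tGro-b minus AMD3100 blood (0.82 ± 0.26, adjusted p = 0.0406 and 0.159).

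E2f1, a transcription factor that switches on S phase genes, stood at -0.39, 0.04 and 0.93 in PBS marrow, 0.55, -0.18 and 0.85 in G-CSF blood, -0.22, -0.25 and 0.44 in CWHM-823+tGro-b blood and -0.83, -0.72 and 0.18 in AMD3100 blood. The groups overlapped, and replicate 3 was the highest of each group. Its G-CSF minus AMD3100 difference of 0.86 ± 0.41 passed only with the block (limma adjusted p = 0.010, and 0.113 without it). Ccne1, the E-type cyclin that drives entry into S phase, averaged -0.76 ± 0.31 in PBS marrow, -1.09 ± 0.15 in G-CSF blood, -1.10 ± 0.24 in CWHM-823+tGro-b blood and -1.09 ± 0.55 in AMD3100 blood and passed in no comparison. Of the genes that rebuild chromatin behind the fork, Uhrf1, which guides copying of DNA methylation, averaged 2.93 ± 0.08 in PBS marrow, 3.01 ± 0.38 in G-CSF blood, 2.68 ± 0.27 in CWHM-823+tGro-b blood and 2.24 ± 0.29 in AMD3100 blood. Uhrf1 was 0.77 ± 0.26 higher after G-CSF than after AMD3100 (limma adjusted p = 0.0435), and lower after AMD3100 than in marrow with the block (-0.69 ± 0.26, adjusted p = 0.0499, and 0.189 without it). Chaf1b, a subunit of chromatin assembly factor, averaged 1.40 ± 0.18 in PBS marrow, 1.02 ± 0.10 in G-CSF blood, 1.07 ± 0.20 in CWHM-823+tGro-b blood and 0.73 ± 0.47 in AMD3100 blood; its difference from marrow was -0.66 ± 0.26 after AMD3100 (limma adjusted p = 0.0451 with the block, 0.203 without) and -0.37 ± 0.26 after G-CSF (adjusted p = 0.401). A second Chaf1b probe, above background on all 12 arrays, gave -0.32 in AMD3100 blood minus marrow where the probe used gave -0.66. In G-CSF minus AMD3100 blood the second probe gave -0.006 and the probe used 0.289. Chaf1a, the partner of Chaf1b, averaged -0.03 ± 0.29 in PBS marrow, -0.24 ± 0.44 in G-CSF blood, -0.49 ± 0.30 in CWHM-823+tGro-b blood and -0.37 ± 0.36 in AMD3100 blood and passed in no comparison. The probe of Ccne2 read -6.37 ± 0.29 in PBS marrow, -6.59 ± 0.11 in G-CSF blood, -6.33 ± 0.05 in CWHM-823+tGro-b blood and -5.86 ± 0.24 in AMD3100 blood, all below background.

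Against steady-state marrow, some replication genes were lower in AMD3100 blood. Without the block 2 of 44 members were lower, Tk1 and Rfc1, and 0 were higher, against 0.908% and 0.513% of all genes tested; with the block 12 were lower and 0 higher, against 7.69% and 5.82%. The 12 were Orc6, Cdt1, Mcm10, Pola1, Pold1, Rfc1, Fen1, Rpa2, Rrm1, Tk1, Chaf1b and Uhrf1, from licensing to chromatin. The members' median difference was -0.57, beside 0.11 over all genes, and 38 of 44 were below 0. Within the slides it was -0.40, -0.81 and -0.45. Without the third marrow array, the one rich in neutrophil genes, the median was -0.39 and Tk1 alone passed. Of all genes, 0.542% were then lower and 0.319% higher. With the block and without that array, 3 members were lower (Orc6, Rfc1 and Tk1) and 1 was higher (Tyms), where 7.71% of all genes were lower and 7.06% higher, so the members' share of lower calls was then near that of all genes. Leaving out any 1 array from the blocked fit gave 2 to 11 lower members, where 0.87% to 7.71% of all genes were lower. The fewest were called without PBS marrow replicate 2, AMD3100 replicate 1 or AMD3100 replicate 2.

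Between G-CSF blood and marrow few members differed. In limma without the block 0 of 44 members passed in either direction, against 1.18% of all genes higher and 0.555% lower, and with the block 0 were higher and 1, Tyms, was lower, against 8.24% and 11.3%. The median difference was 0.16, beside -0.25 over all genes. Within the slides it was 0.59, 0.00 and -0.23, above 0 on the first slide and below 0 on the third. Without the third marrow array it was 0.18, and 0 members passed with or without the block. Of all genes, 0.836% were then higher and 0.361% lower without the block, and 3.9% and 3.24% with it. The blocked call of Tyms was lost in 10 of the 12 fits that leave out 1 array, and kept without PBS marrow replicate 2 or AMD3100 replicate 1. The smallest p on the higher side belonged to Gins2, Pole2 (0.65 ± 0.39, limma adjusted p = 0.342) and Mcm4 (0.38 ± 0.23, adjusted p = 0.349).

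In CWHM-823+tGro-b blood against marrow, 0 of 44 members passed in either direction with or without the block; all genes gave 0.34% higher and 0.0294% lower without it, and 0.769% and 0.311% with it. The median difference was -0.19, beside -0.05 over all genes, with 0.26, -0.22 and -0.50 within the slides. Without the third marrow array it was -0.02, and 0 members passed in either fit. Of all genes, 0.244% were then higher and 0.0294% lower without the block, and 0.408% and 0.219% with it. The smallest p belonged to Mcm10 and Tk1, given above, and Orc6 (-0.67 ± 0.25, limma adjusted p = 0.667) on the lower side, and to Gins2, Gins3 (0.17 ± 0.21) and Rpa3 (0.21 ± 0.31), each at an adjusted p of 1.0, on the higher side. Against G-CSF blood, again 0 of 44 passed in either fit, where 0.37% of all genes were higher and 0.256% lower in G-CSF blood without the block and 1.12% and 1.08% with it. The median difference was 0.25 with 0.29, 0.23 and 0.23 within the slides, beside -0.14 over all genes, and 40 of 44 members were above 0. Next to Tk1, the smallest p in that comparison belonged to Cdt1 (0.70 ± 0.28, limma adjusted p = 0.428) and Mcm10 (0.67 ± 0.27, adjusted p = 0.435) on the higher side, and, with Tyms, to Rfc4 (-0.13 ± 0.24, adjusted p = 0.834) and Chaf1b (-0.05 ± 0.26, adjusted p = 0.943) on the lower side.

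Against AMD3100 blood, 0 of 44 members passed in CWHM-823+tGro-b blood without the block, where 0.118% of all genes were higher and 0.0294% lower; with it 7 were higher and 0 lower, against 8.43% and 8.41% of all genes. The 7 were Pola1, Pold1, Rfc1, Pcna, Rrm1, Tk1 and Orc3 (0.60 ± 0.24, limma adjusted p = 0.0458 with the block, 0.216 without). The median difference was 0.41, beside -0.16 over all genes, with 0.53, 0.48 and 0.05 within the slides. No member passed when CWHM-823+tGro-b replicate 1 or 2 or AMD3100 replicate 1 was left out of the blocked fit. In those fits, in that order, 0.105%, 0.685% and 0.412% of all genes passed in either direction. The loss of calls cannot be read as particular to the members. Cdc6 had the smallest p on the lower side with Tyms and Lig1, at -0.83 ± 0.53 (limma adjusted p = 0.369). The second probe of Cdc6 had the opposite sign in this comparison, at 1.1.

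Other genes of the pathway, listed by name and not by how they moved, were counted in the same way. Of 46, 44 were tested (Orc1 and Clspn were not above background on all arrays of any group). In G-CSF minus AMD3100 blood, 11 were higher and 1 lower, against 12.6% and 18.4% of all genes, with a median of 0.58. With the block 19 were higher and 4 lower, against 23.0% and 39.6%. Highest by p were Pold3, a polymerase delta subunit (1.42 ± 0.32, limma adjusted p = 0.0124), and Samhd1, which breaks down deoxynucleotides (0.93 ± 0.24, adjusted p = 0.0186). The single lower gene was Cdc45, the third part of the active helicase (-1.08 ± 0.29, limma adjusted p = 0.0224), followed by the helicase Recql4 (-0.68 ± 0.28, adjusted p = 0.0745 without and 0.0246 with the block). Cdc45 thus differed in the opposite direction to all 6 ring subunits and to the GINS subunit Gins4 of the same complex. In AMD3100 blood minus marrow none of the 44 passed without the block, and 8 were lower and 1 higher with it, against 7.69% and 5.82% of all genes. Without the third marrow array these were 5 and 1, against 7.71% and 7.06%. The smallest p there belonged to Atad5, which unloads the clamp (-2.45 ± 0.65, limma adjusted p = 0.0849 without and 0.00935 with the block), Pold3 (-1.17 ± 0.32, adjusted p = 0.0891 and 0.0328), Cdc45 (0.85 ± 0.29, adjusted p = 0.156 and 0.0427) and Recql4 (0.28 ± 0.28, adjusted p = 0.600).

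In the other comparisons none of these 44 genes passed without the block. In G-CSF blood minus marrow 2 were higher (Mcmbp and Samhd1) and 2 lower (Mcm8 and Tonsl) with it, against 8.24% and 11.3% of all genes. Without the third marrow array the blocked counts were 0 and 2, against 3.9% and 3.24%. Samhd1 (0.57 ± 0.24) and the activator E2f2 (0.65 ± 0.29) led by p on the higher side, at limma adjusted p = 0.0442 and 0.0947 with the block, and Tonsl (-0.62 ± 0.25) and the kinase Cdc7 (-0.61 ± 0.27) on the lower side, at 0.0241 and 0.104. In CWHM-823+tGro-b blood minus marrow none passed with it either; Cdc7 (-0.71 ± 0.27) and Wdhd1 (-0.49 ± 0.22) led on the lower side, and Dctpp1 (0.20 ± 0.28) and Pole3 (0.14 ± 0.28) on the higher. In CWHM-823+tGro-b minus AMD3100 blood 5 were higher and 1, Cdc45 (-0.86 ± 0.29, limma adjusted p = 0.0397), lower with the block, against 8.43% and 8.41% of all genes. They were led by Pold3 (1.08 ± 0.32, adjusted p = 0.0393) and Orc4 (1.09 ± 0.37, adjusted p = 0.0290), with Recql4 at -0.53 ± 0.28 on the lower side. In G-CSF minus CWHM-823+tGro-b blood none passed in either fit; E2f2 (0.98 ± 0.29) and Samhd1 (0.56 ± 0.24) led on the higher side and Rrm2b (-0.82 ± 0.47) was among those on the lower.

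Mitosis genes act after replication in the same cycle. Of 29, 28 were tested. Their median level was -0.68, -0.31 and -0.25 on the marrow arrays and lower on every blood array, from -0.85 to -1.27. All 3 blood groups had medians below marrow, -0.70 after G-CSF (0 higher and 2 lower), -1.15 after AMD3100 (0 and 9) and -0.88 after CWHM-823+tGro-b (0 and 0). Of all genes, 0.555%, 0.908% and 0.0294% were lower in these comparisons. With the block 8, 18 and 4 mitosis genes were lower and 0 higher, against 11.3%, 7.69% and 0.311% of all genes lower. Without the third marrow array the mitosis medians were -0.60, -1.06 and -0.83. Without the block 0, 5 and 0 mitosis genes were then lower, against 0.361%, 0.542% and 0.0294% of all genes. With it 3, 13 and 0 were lower, against 3.24%, 7.71% and 0.219% of all genes. The replication genes in the same comparisons had medians of 0.16, -0.57 and -0.19; these comparisons share the marrow arrays. In G-CSF minus AMD3100 blood the mitosis median was 0.37, with 9 genes higher and 2 lower, against 12.6% and 18.4% of all genes. With the block 12 were higher and 3 lower, against 23.0% and 39.6%. No test of replication against mitosis genes was made.

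**Figure D4:**
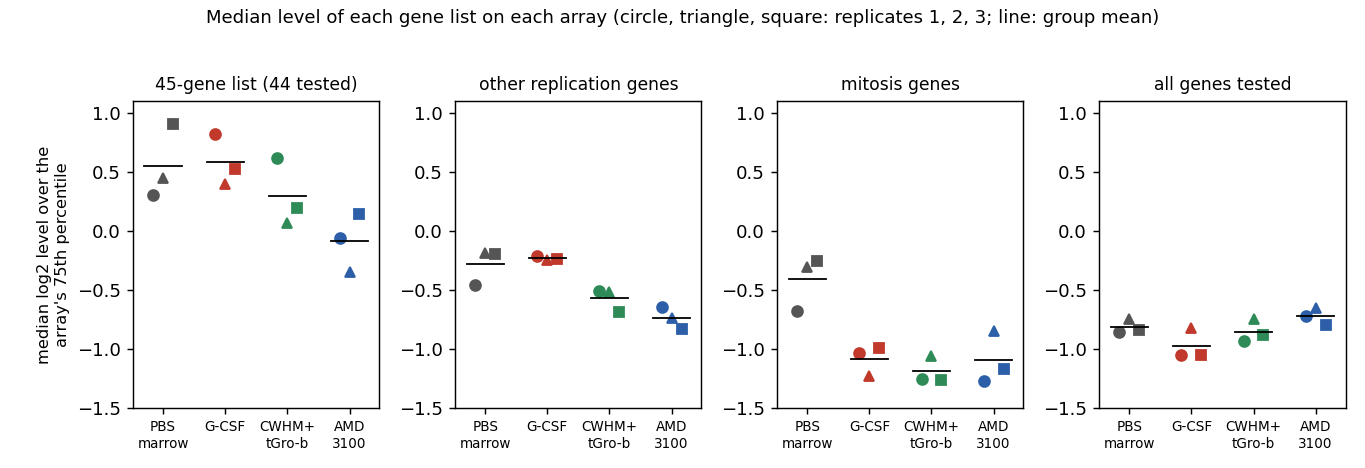
Median log2 level on each array, relative to the array's 75th percentile signal, of the 44 replication genes, the 44 other replication genes, the 28 mitosis genes and all 23795 genes tested; the line is the mean of 3 arrays. The replication genes are near marrow level in G-CSF blood and lowest in AMD3100 blood, whereas the mitosis genes are lower in all 3 blood groups than in marrow.

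Probe positions limit single genes. The array design places the probes on mm9, and for 38 members the position was on the chromosome the gene table gives. The probes of Mcm7, Pcna and Rrm2 were placed on chromosomes 16, 19 and 19 where the genes lie on 5, 2 and 12; whether they read another copy was not tested. Without them 15 members were higher and 1 lower in G-CSF minus AMD3100 blood. Those of Orc2, Pold1, Pole2 and Rfc3 carry no position. The Tk1 probe lies at chr11:117676845-117676904, the Rfc1 probe at chr5:65653207-65653266, the Fen1 probe at chr19:10273675-10273734 and the Tyms probe at chr5:30385578-30385637; exon and UTR annotation of mm9 was not used here. Of the 9 members with more than 1 probe, Cdc6 and Pole gave opposite or very different values, as described, and those of Rfc4, Chaf1b and Ccne1 differed too. The second Ccne1 probe was dimmer and above background on 9 of the 12 arrays. It gave -0.39 in G-CSF minus AMD3100 blood where the probe used gave 0.001.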

How the data were processed

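RNA from sorted LSK cells was amplified, labelled with Cy5 and hybridised to 12 single-colour Agilent arrays, 3 per group. The authors deposited scanner output whose processed signal is an intensity on a linear scale, background-subtracted and detrended by Feature Extraction 11.5.1.1, per the submitters' processing notes and the file headers; the design is annotated on mm9. Groups were taken from the labels. Of 43020 non-control spots, repeated probes were averaged, 28330 of 39429 probes were matched by accession, and none was saturated. The level is log2 of the intensity minus the array's 75th percentile. A gene's probe is the one with the highest mean, and genes entered the test where some group had every array above background. Differences came from lmFit and eBayes of limma 3.58.1 under R 4.3.3 over all 12 arrays with a mean for each group, and p-values were Benjamini-Hochberg adjusted over 23795 genes with a threshold of 0.05. The fit was tested on simulated data.

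The replicate number is also the slide, and each of the 3 slides holds all 4 groups. Deviations from the group means correlated at 0.26 to 0.616 in the 18 same-number pairs and at -0.446 to 0.0367 in the 36 others. Such deviations sum to 0 within a group, so these ranges are not independent of each other. The numbers were taken to pair the arrays in the blocked fit only. No label states a paired design, and the main fit has no block. Named in the text are all members and, for the other replication genes, the 2 with the smallest p in each direction of each comparison, except that 1 such gene is not reported here. Members and lists were chosen with earlier results of these data known. The alternatives were other normalizations, filters, probe rules, the authors' deposited value table, the replicate block and leaving out each array. Quantile normalization together with the block, the blocked fits without single arrays, the other lists without the third marrow array and the counts without the 3 probes placed on another chromosome were chosen after seeing the data. The number of arrays limits the precision.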

Additional observations from a re-analysis of the deposited data

How the results depend on the processing

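The AMD3100 minus marrow count of members called was 2, and it was 4 after quantile normalization and in the authors' table, 1 after normexp, 1 without the filter, 1 with above background on all arrays required, 1 with only the groups compared, 12 with the replicate block, 18 with quantile normalization and the block, and 0 to 2 without single arrays. The G-CSF minus AMD3100 count was 17, and 27 with the replicate block, 8 with only the groups compared and 2 to 18 without single arrays. The CWHM-823+tGro-b minus AMD3100 count was 0, and 7 with the replicate block and 9 with quantile normalization and the block. The G-CSF minus marrow count was 0, and 1 with the replicate block. The block also raised the calls over all genes. Lower calls went from 0.908% to 7.69% in AMD3100 minus marrow and from 0.555% to 11.3% in G-CSF minus marrow. In G-CSF minus AMD3100 higher calls went from 12.6% to 23.0% and lower ones from 18.4% to 39.6%. Higher calls in CWHM-823+tGro-b minus AMD3100 went from 0.118% to 8.43%. The other counts stand here without that share, so a change in them cannot be read as particular to the members. The median of G-CSF minus CWHM-823+tGro-b was 0.21 after normexp and 0.13 to 0.38 without single arrays. Without single arrays the other medians were -0.70 to -0.39 (AMD3100 minus marrow), 0.53 to 0.79 (G-CSF minus AMD3100), 0.24 to 0.52 (CWHM-823+tGro-b minus AMD3100), -0.29 to -0.02 (CWHM-823+tGro-b minus marrow) and 0.04 to 0.18 (G-CSF minus marrow). Signs turned for Cdc6 in CWHM-823+tGro-b minus AMD3100 with the mean of probes (0.13), Chaf1b in G-CSF minus CWHM-823+tGro-b without CWHM-823+tGro-b replicate 1 (0.0137) or 3 (0.0011), and Rfc5 in G-CSF minus AMD3100 without G-CSF replicate 3 (0.0844) or AMD3100 replicate 2 (0.0355); without single arrays these ran from -0.203 to 0.0844 for Rfc5 and from -0.165 to 0.0137 for Chaf1b. The cause was not tested, beyond fewer arrays where arrays were left out. Over all genes the G-CSF minus AMD3100 median was -0.37, and -0.10 after quantile normalization, -0.24 after normexp and -0.11 in the authors' table; 3008 genes were higher and 4382 lower, against 3321 and 2603 after quantile normalization, where the members gave 15 and 1. For G-CSF minus marrow the split was 281 and 132, against 283 and 70. With 3 arrays a group, small differences were not detectable, and Rpa2 and Tk1 were above background on 2 of 3 AMD3100 arrays, so their levels there lie near the limit of detection.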
